A study of Mus musculus with 6 samples.

Results

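The genes *Scara5*, *Clec3b*, *Inmt*, *Pcolce2*, *Pi16*, *Mfap5*, *Dpt*, *Cd34*, *Dpp4* and *Gsn*, all known from fibroblasts of the adventitia, were examined in the colon of mice classed as obesity-prone (OP) or obesity-resistant (OR). They were taken by gene symbol, and all 10 were among the 17778 genes listed. The RNA-seq data hold 1 colon library per mouse, from 3 OP and 3 OR mice. All 6 were wild-type male C57BL/6J mice given a high-fat diet (60% fat) for 16 weeks and sampled at 21 weeks of age. Of 42 mice on this diet, the 10 that gained the most weight were classed as OP and the 10 that gained the least as OR, so the groups differ by weight gain and not by genotype or diet. The colon was taken as whole tissue, and no cell type was isolated. The genes were chosen because OP and OR mice were known to differ in them, so the values of OP and OR mice are given as a description and were not tested.

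Adventitial fibroblasts lie around vessels and in the outer connective tissue of many organs, including the submucosa and outer wall of the gut. They are known for *Pi16* and *Dpp4*, for a high level of *Cd34*, and for secreting proteins that bind collagen and microfibrils. Several of the genes are also made elsewhere: *Cd34* by blood endothelium, *Gsn* by smooth muscle and epithelium, and *Dpp4* by epithelium and T cells. In whole tissue, fewer cells of a type and less RNA per cell cannot be told apart.

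The promoters of the genes were read from RefSeq (GRCm38.p6, another build than the GRCm39 named by the authors), where 7 of the 10 genes matched with 9 windows, each from 250 bases before to 50 bases after a start site (*Scara5*, *Clec3b* and *Mfap5* were not matched). Those of *Inmt*, *Cd34*, *Dpt* and *Pcolce2* are shown because these genes had the lowest log2(FPKM + 1) differences OP minus OR among the genes matched (by the ratio of mean FPKM, *Pi16* would come before *Cd34* and *Dpt*), and that of *Dpp4* because it was the gene whose groups overlapped. Each is printed on the strand of the gene up to the earliest gene start. Capitals mark matches to 5 motifs, each searched on both strands. The TATA box was searched with the letters TATAAA and the CCAAT box with the letters of its name. The GC box was searched with GGGCGG, the E-box with CANNTG, where N is any base, and the AP-1 motif with TGANTCA.
Inmt, chr6:55175044-55175240, - strand: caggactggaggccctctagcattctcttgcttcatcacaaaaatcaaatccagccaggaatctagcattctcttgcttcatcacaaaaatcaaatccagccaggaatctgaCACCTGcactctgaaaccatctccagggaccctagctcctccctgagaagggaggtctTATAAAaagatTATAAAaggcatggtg
Cd34, chr1:194938571-194938818, + strand: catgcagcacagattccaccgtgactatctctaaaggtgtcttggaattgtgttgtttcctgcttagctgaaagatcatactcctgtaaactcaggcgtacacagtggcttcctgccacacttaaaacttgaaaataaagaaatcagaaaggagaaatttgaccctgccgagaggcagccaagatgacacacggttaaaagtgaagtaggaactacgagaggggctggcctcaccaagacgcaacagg
Dpt, chr1:164796413-164796643, + strand: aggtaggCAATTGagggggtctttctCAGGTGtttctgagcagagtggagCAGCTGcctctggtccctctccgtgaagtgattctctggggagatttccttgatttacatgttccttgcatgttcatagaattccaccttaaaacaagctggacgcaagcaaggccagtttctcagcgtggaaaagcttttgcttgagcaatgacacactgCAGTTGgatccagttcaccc
Pcolce2, chr9:95637378-95637600, + strand: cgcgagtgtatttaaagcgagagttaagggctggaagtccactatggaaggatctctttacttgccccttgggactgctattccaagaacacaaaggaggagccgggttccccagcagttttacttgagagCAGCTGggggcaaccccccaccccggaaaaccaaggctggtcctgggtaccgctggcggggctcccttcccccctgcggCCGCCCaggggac
Dpp4, chr2:62412232-62412481, - strand: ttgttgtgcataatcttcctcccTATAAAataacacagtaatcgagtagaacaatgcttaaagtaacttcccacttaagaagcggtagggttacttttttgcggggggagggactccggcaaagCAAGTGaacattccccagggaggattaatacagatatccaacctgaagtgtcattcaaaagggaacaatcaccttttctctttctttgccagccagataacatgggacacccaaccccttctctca

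*Inmt* holds the TATA box letters at positions -80 and -69 from its RefSeq start, *Dpp4* at position -227 and *Dpt* at position 13, past the stretch printed. The *Cd34* window holds none of the 5 motifs. The TATA box was found in 3 of the 9 windows (13.6% of all 32851 windows), the GC box in 4 (35.7%), the CCAAT box in 3 (37.4%), the E-box in 8 (72.3%) and AP-1 in 0 (7.81%). By gene, the E-box was found in 6 of the 7, the TATA box in 3 (*Inmt*, *Dpt* and *Dpp4*), the GC box in 2 (*Gsn* and *Pcolce2*) and the CCAAT box in 2 (*Gsn* and *Pi16*), so none of the 5 motifs was in all 7. A match describes the letters and is not a binding site.

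Expression was deposited as FPKM, the number of fragments scaled by transcript length and by the mapped fragments of the library, so levels can be compared between genes. Low values fell near steps of single fragments, from which a depth of about 14100000 to 15700000 fragments per mouse was estimated. The epithelial markers *Krt8* (2434 to 3649 FPKM) and *Epcam* (935 to 1188 FPKM) were high in each mouse. Colon epithelial genes varied widely, *Aqp8* from 39.4 to 1084 FPKM in OP mice and from 10.1 to 358 in OR mice, and *Muc2* was at 17.6 in OP mouse 1 and at 154 or above in the other mice. In OP mouse 2, the adipocyte genes *Adipoq*, *Plin1*, *Lep*, *Cfd* and *Retn* were listed at 0. The part of these differences in the values below was not tested beyond the values given.

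Of the 10 genes, 9 were lower in every OP mouse than in every OR mouse, where 6.81% of the 13520 genes tested had no overlap in this direction. *Dpp4* was the exception, and 0 of the 10 were higher without overlap (1.63% of all genes). The difference was below 0 in all 10 (70.1% of all genes) and at most -1 in 8 of them (1.05% of all genes) on the log2(FPKM + 1) scale. The mean FPKM in OR mice was at least 2 times that in OP mice in these 9 genes and in 2.38% of all genes tested. On the same scale, the median difference OP minus OR was -1.27 over the 10 genes and -0.10 over all genes. Without OP mouse 1 these medians were -1.315 and -0.01, the latter the value nearest to 0 with 1 mouse left out. Because the contrast was used to choose the genes, these counts describe them and support nothing further. All 10 genes passed the filter of at least 0.5 FPKM in at least 3 mice, *Pcolce2* through the OR mice alone, since each OP mouse was under 0.5. *Scara5* and *Pi16* reached 0.5 in 1 OP mouse each. The difference on the log2 scale understates the change of such low genes.

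**Figure D1:**
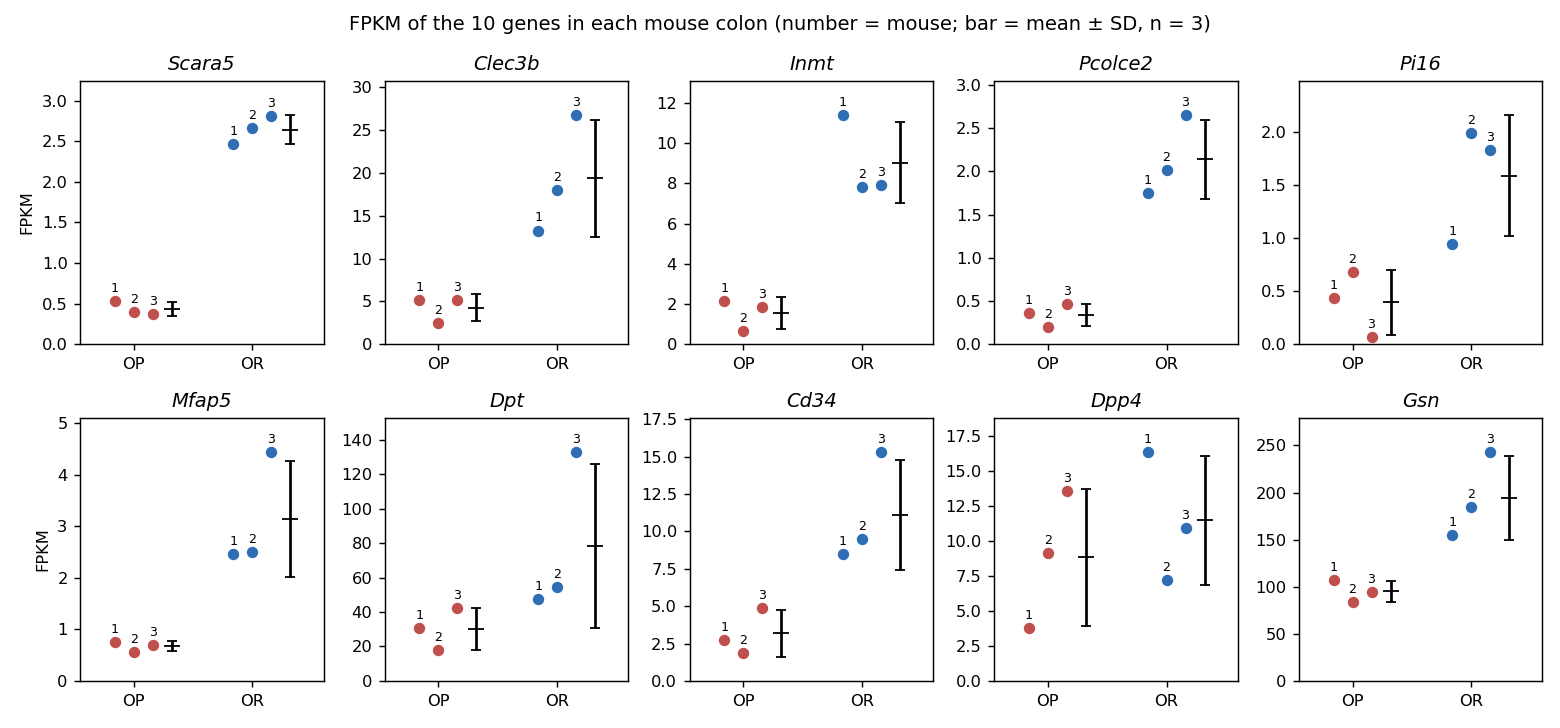
FPKM (vertical axes, each from 0) of the 10 genes in the colon of OP mice (red) and OR mice (blue). Points are single mice with their number and the black bars are the mean ± SD (n = 3); the OP points lie below all OR points except in *Dpp4*.

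*Scara5* encodes a scavenger receptor that takes up ferritin. Its expression was 0.53, 0.40 and 0.37 FPKM in OP mice 1, 2 and 3 and 2.46, 2.66 and 2.81 FPKM in OR mice 1, 2 and 3. The lowest OR mouse stood at 4.64 times the highest OP mouse, the widest gap of the 10 genes, and the mice of each group lay close together. OP mice averaged 0.433 ± 0.0850 FPKM (SD, n = 3) against 2.64 ± 0.176 FPKM (SD, n = 3) for OR mice, a ratio of 6.10. The low OP values still rest on an estimated 20 to 26 fragments per mouse, and the OR values on 137 to 150.

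*Inmt* encodes a methyltransferase that acts on indolethylamines such as tryptamine. It was at 2.15, 0.68 and 1.83 FPKM in the OP mice and at 11.4, 7.83 and 7.91 FPKM in the OR mice. OP mouse 2 was the lowest and OR mouse 1 the highest, and the groups lay far apart, with 1.55 ± 0.773 FPKM (SD, n = 3) against 9.04 ± 2.03 (SD, n = 3). Its log2 difference of -2.01 (standard error 0.29) was the lowest of the 10.

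*Adipoq*, which encodes the adipocyte hormone adiponectin, was at 6.61, 0 and 6.99 FPKM in the OP mice and at 18.5, 2.81 and 10.5 FPKM in the OR mice. The groups overlapped in *Adipoq*, with OR mouse 2 below OP mice 1 and 3, and did not overlap in *Inmt*. The part of adipocytes in *Inmt* was not tested. The log2 difference of *Inmt* was -1.73 without OP mouse 2, the value nearest to 0 among those with 1 mouse left out.

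The genes of secreted matrix and plasma proteins were *Clec3b*, *Pcolce2*, *Mfap5* and *Dpt*. *Clec3b* encodes tetranectin, which binds plasminogen. It had 5.16, 2.47 and 5.17 FPKM in the OP mice and 13.3, 18.1 and 26.7 FPKM in the OR mice. The lowest OR mouse was at 2.57 times the highest OP mouse, but the OR mice differed among themselves by a factor of 2.01. OP mice averaged 4.27 ± 1.56 FPKM (SD, n = 3) against 19.3 ± 6.81 FPKM (SD, n = 3) for OR mice.

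*Pcolce2* encodes an enhancer of the proteinase that cuts the C-terminal propeptide from procollagen. It was at 0.36, 0.20 and 0.46 FPKM in the OP mice and at 1.75, 2.02 and 2.65 FPKM in the OR mice. The ratio of the means, 6.29, was the highest of the 10 genes, with OP mice all near the lower end of what was detected (an estimated 13 to 29 fragments). *Mfap5*, which encodes a glycoprotein of elastin-associated microfibrils, was at 0.75, 0.57 and 0.70 FPKM in the OP mice and at 2.47, 2.5 and 4.44 FPKM in the OR mice. OR mouse 3 stood above the other OR mice, which were nearly equal.

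*Dpt* encodes dermatopontin, a small matrix protein that binds decorin and collagen. It had 30.6, 17.8 and 42.2 FPKM in the OP mice and 47.8, 54.3 and 133 FPKM in the OR mice. Here the groups came close, since the lowest OR mouse was at 1.13 times the highest OP mouse, and OR mouse 3 was far above the other mice. Its log2 difference of -1.27 (standard error 0.44) was -0.82 at the value nearest to 0, the fit without OR mouse 3.

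The surface and intracellular proteins were more mixed. *Pi16*, a peptidase inhibitor anchored to the cell surface and a marker of adventitial fibroblasts, was at 0.43, 0.68 and 0.07 FPKM in the OP mice and at 0.94, 1.99 and 1.83 FPKM in the OR mice. The value of OP mouse 3 rests on an estimated 4 fragments. OR mouse 1 was at 1.38 times OP mouse 2, so the gap between the groups was narrow for so low a gene.

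*Cd34* encodes a sialomucin of the cell surface, to which L-selectin can bind. It was at 2.76, 1.87 and 4.90 FPKM in the OP mice and at 8.47, 9.46 and 15.3 FPKM in the OR mice. OP mouse 2 was again the lowest and OR mouse 3 the highest. Blood endothelium makes *Cd34* too, and its 12 marker genes were all lower on average in OP mice (70.1% of all genes were). Their median log2 difference was -0.74 against -1.55 (standard error 0.33) for *Cd34*, and their median ratio OR to OP was 2.15 against 3.49. Of the 12 markers, 7 reached a ratio of 2 (2.38% of all genes) and 7 were lower without overlap (6.81%). The summed level of these markers was 20.0 to 32.2 FPKM in OP mice and 35.8 to 59.7 FPKM in OR mice. The part of endothelium in *Cd34* was not tested.

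*Gsn* encodes gelsolin, which severs and caps actin filaments and is also secreted into plasma. It was the most abundant of the 10 genes, with 107, 84.1 and 94.1 FPKM in the OP mice and 154, 185 and 243 FPKM in the OR mice. The OP mice lay close together, the highest at 1.27 times the lowest, and below each OR mouse. *Gsn* has 3 promoter windows in RefSeq, and the values, given per gene, do not separate its secreted and intracellular forms. Smooth muscle, which also makes *Gsn*, had a median log2 difference of -0.32 over 10 markers against -1.01 (standard error 0.19) for *Gsn*. The ratio OR to OP was 2.04 for *Gsn*, and 0 of the 10 markers reached 2. The part of smooth muscle and epithelium in *Gsn* was not tested.

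*Dpp4* encodes a peptidase of the cell surface that inactivates incretin hormones and trims chemokines. It had 3.77, 9.15 and 13.6 FPKM in the OP mice and 16.4, 7.19 and 10.9 FPKM in the OR mice. The groups overlapped, with OP mouse 1 the lowest of the 6 mice and OR mouse 1 the highest. The log2 difference was -0.42 with a standard error of 0.44, and without OP mouse 1 it was 0.03, on the other side of 0. The profile of *Dpp4* over the mice was also the farthest of the 10 from the mean of the other 9, by a root mean square difference of 0.81 on the log2 scale, where *Pcolce2* was the nearest at 0.08.

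**Figure D2:**
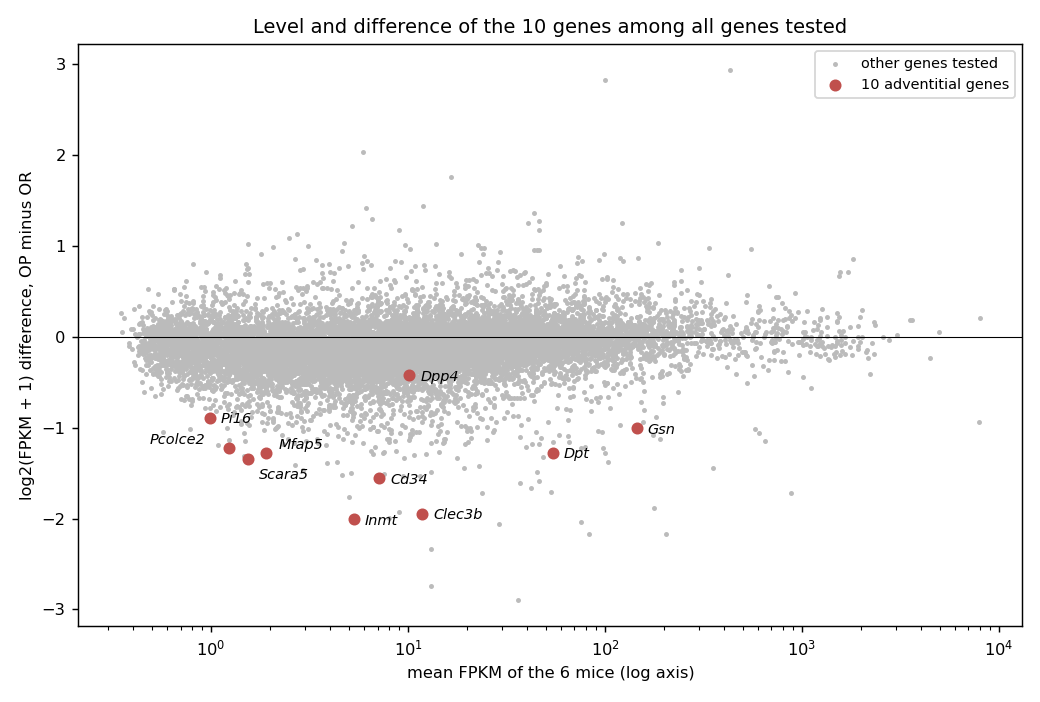
Mean FPKM of the 6 mice (horizontal log axis) against the log2(FPKM + 1) difference OP minus OR (vertical axis) for all 13520 genes tested (grey) and the 10 genes (red, named). The 10 genes span levels from *Pi16* to *Gsn*. Their differences run from -2.01 in *Inmt* to -0.42 in *Dpp4*, and the median over all genes is -0.10.

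In both groups the level, per length of transcript, was highest for *Gsn* and next for *Dpt*, and each was above the next gene in all mice of the group. *Clec3b*, *Dpp4*, *Cd34* and *Inmt* followed in the OR mice at means of 19.3, 11.5, 11.1 and 9.04 FPKM, and neighbours in this order overlapped. *Mfap5*, *Scara5*, *Pcolce2* and *Pi16* were the lowest at means of 3.14, 2.64, 2.14 and 1.59 FPKM in the OR mice, again with overlap between neighbours. In the OP mice *Dpp4* stood above *Clec3b*, although the mice overlapped.

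Within the groups, the same mice were often at the ends. OP mouse 2 was the lowest OP mouse in 7 of the 10 genes, all but *Dpp4*, *Scara5* and *Pi16*. OR mouse 3 was the highest OR mouse in 7 of the 10, and OR mouse 1 was the lowest in 8. The coefficient of variation was highest for *Pi16* in OP mice (78.0%) and for *Dpt* in OR mice (60.4%), and it was lowest for *Gsn* in OP mice and for *Scara5* in OR mice (6.64%). Leaving out 1 mouse cannot make groups overlap that did not, so the count of genes without overlap could not fall. It was 9 with each mouse left out in turn, and the median log2 difference of the 10 stayed between -1.38 and -1.09.

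Genes of fibroblasts in general were lower on average in OP mice too, which raises the question of whether the 10 genes differed by more. A list of 18 such genes, among them collagens, *Dcn* and *Vim*, had a median ratio OR to OP of 1.85, against 4.28 for the 10 genes, and 5 of the 18 reached a ratio of 2. The mean log2(FPKM + 1) of the 10 genes minus that of the 18 was -1.11, -1.25 and -1.32 in OP mice 1, 2 and 3, against -0.86, -0.64 and -0.73 in OR mice 1, 2 and 3. Every OP mouse lay below every OR mouse on this measure, which was not tested because the 10 genes had been chosen on this contrast. Taken one by one against the 18, 6 genes kept the OP mice below the OR mice without overlap, namely *Scara5*, *Clec3b*, *Inmt*, *Pcolce2*, *Mfap5* and *Cd34*. For *Pi16*, *Dpt* and *Gsn* the groups then overlapped, and *Dpp4* was higher in OP mice by 0.39. These comparisons rest on log2(FPKM + 1), which understates low genes such as *Pi16*, whose ratio OR to OP was 4.03. With a pseudocount of 0.1, the difference OP minus OR of *Pi16* moved from -0.89 to -1.97, and that of the 10 genes relative to the 18 from -0.48 to -0.89.

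In the general list, 18 of 18 genes were lower (70.1% of all genes were) and 12 did not overlap (6.81%). By limma-trend with Benjamini-Hochberg adjustment over all genes, 0 of the 18 were called as lower (0.0222% of all genes were). A call needed a fold change of at most 0.83 and an adjusted p below 0.2, the thresholds of the study. The study applied them with DESeq2, another test. From its genes at a stricter q-value below 0.05 it drew key driver genes, with *Col1a1*, *Col3a1* and *Lum* of the 18 among them. It reported these as significantly higher in OR mice, *Col3a1* and *Lum* also by real-time PCR. By limma-trend at an unadjusted p below 0.05, 14 of the 18 were lower, where 3.53% of all genes were (0.503% were higher). With median-of-ratios scaling, these counts over all genes moved from 477 lower and 68 higher to 423 and 153. *Dcn*, which encodes the proteoglycan decorin, had 27.9, 17.4 and 40.8 FPKM in the OP mice and 81.1, 95.5 and 191 FPKM in the OR mice. No gene of the 10 had a lower log2 difference than the -2.03 of *Dcn* (standard error 0.39, adjusted p = 0.624 by limma-trend). *Pdgfrb*, a receptor of fibroblasts and pericytes, was at -0.28 (standard error 0.29).

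**Figure D3:**
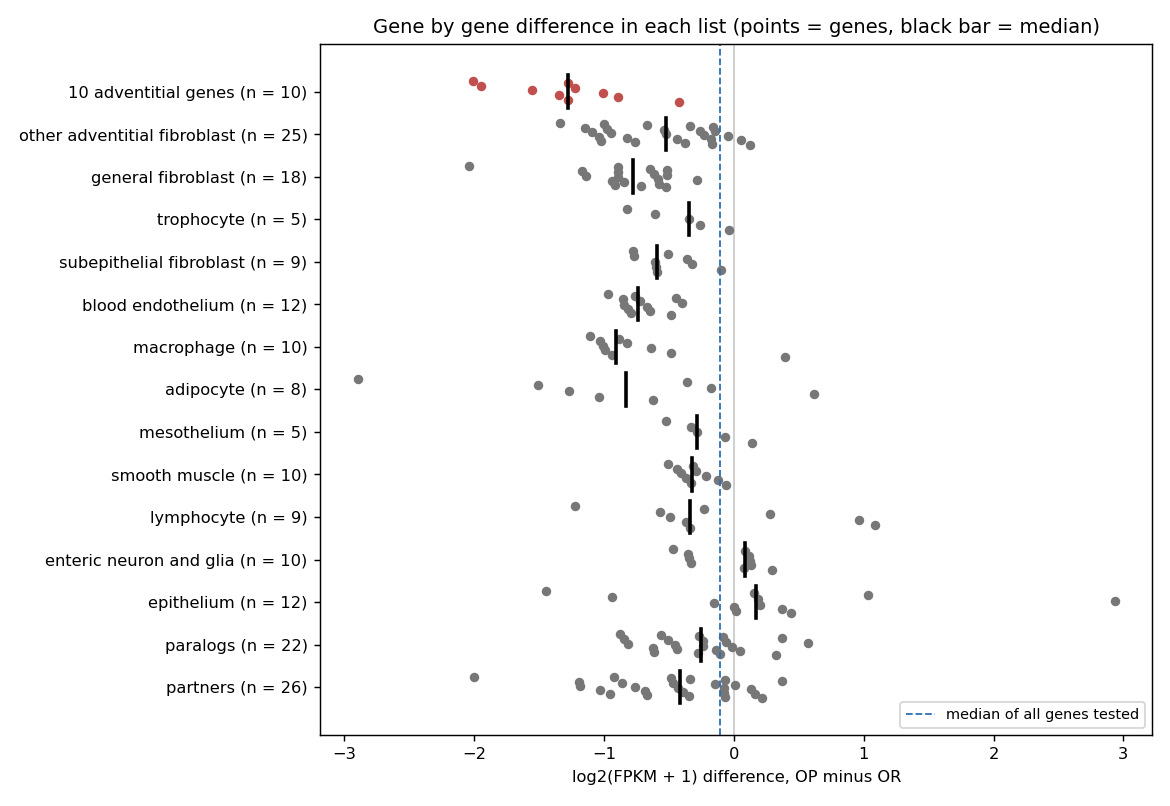
Log2(FPKM + 1) difference OP minus OR (horizontal axis) of each gene tested in the 10 adventitial genes (red) and 14 other lists (grey), with list medians as black bars and the median of all genes as a dashed line. The median of the 10 genes is -1.27, and those of the other fibroblast lists lie between -0.78 and -0.35.

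A further 30 genes often named for adventitial fibroblasts were taken as a list, of which 25 passed the filter. Of these, 23 were lower (70.1% of all genes were) and 2 higher in OP mice, with a median log2 difference of -0.52. Limma-trend called 0 of them. At an unadjusted p below 0.05, 11 were lower (3.53% of all genes) and 0 higher (0.503%). In 11 genes the OP mice lay below the OR mice without overlap (6.81% of all genes). *Efemp1*, which encodes a fibulin, had 6.29, 2.47 and 6.76 FPKM in the OP mice and 11.1, 13.1 and 17.5 FPKM in the OR mice, the lowest log2 difference of the list at -1.33 (standard error 0.34). *Col14a1*, a collagen that binds to fibrils, was at -1.14 (standard error 0.22), and *Ackr3*, a scavenging receptor for Cxcl12, at -1.09 (standard error 0.29).

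At the other end of this list, *Anxa3*, an annexin, was at 0.13 (standard error 0.80), *Sema3c*, a secreted semaphorin, at 0.05 (standard error 0.16) and *Ugdh*, an enzyme of glycosaminoglycan precursors, at -0.04 (standard error 0.25). *Ugdh* had 268 to 545 FPKM in OP mice and 361 to 414 FPKM in OR mice, and epithelium is known to make it as well. *Ly6a* ran from 38.5 to 357 FPKM in OP mice, a spread that covered all OR mice. The median ratio OR to OP over this list was 1.58, against 4.28 for the 10 genes that had been chosen for their difference. It was 1.85 over the 18 general fibroblast genes, so at the median this adventitial list differed by less than the general list. A ratio of 2 was reached by 9 of its 25 genes and by 5 of the 18 general genes (2.38% of all genes), so this count does not order the lists as the median does. The lists were not tested against each other.

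The other fibroblasts of the gut are trophocytes below the crypts and the subepithelial fibroblasts next to the epithelium. Of 7 trophocyte genes, 5 passed the filter and had a median log2 difference of -0.35. *Wnt2b*, a Wnt ligand, was at -0.82 (standard error 0.20) and *Grem1*, an inhibitor of BMP ligands, at -0.26 (standard error 0.70), with 15.7 FPKM in OP mouse 2 against 1.69 to 6.65 FPKM in the other 5 mice. The 9 subepithelial genes tested had a median of -0.59, and the groups overlapped in 8 of them, *Gli1* being the exception. In both lists limma-trend called 0 genes, and at an unadjusted p below 0.05 it gave 1 and 0 genes as lower (3.53% of all genes).

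Relatives of the 10 genes by protein family were compared next. Of 27 relatives, 22 were tested, 18 were lower (70.1% of all genes were) and 4 higher, with a median log2 difference of -0.25. Limma-trend called 0 of them, and 6 were lower at an unadjusted p below 0.05 (3.53% of all genes). In 7 relatives the OP mice lay below the OR mice without overlap (6.81% of all genes). *Pcolce*, the relative of *Pcolce2*, had 5.03, 6.06 and 8.29 FPKM in the OP mice and 11.7, 9.19 and 16.7 FPKM in the OR mice. Its groups did not overlap, and its ratio of means was 1.94 against 6.29 for *Pcolce2*. *Mfap2*, the relative of *Mfap5*, was at 1.12, 1.10 and 1.47 FPKM in the OP mice and at 1.75, 1.82 and 3.03 FPKM in the OR mice, a ratio of 1.79 against 4.66.

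*Scara3*, a scavenger receptor like *Scara5*, had a log2 difference of -0.56 (standard error 0.16) and did not overlap, whereas *Msr1*, the macrophage scavenger receptor, was at -0.27 (standard error 0.22) and overlapped. *Podxl*, the relative of *Cd34* that endothelium also makes, was at -0.87 (standard error 0.26), and *Podxl2* at -0.27 (standard error 0.28). Among relatives of *Gsn*, the epithelial genes *Vil1* and *Scin* were at 0.37 (standard error 0.26) and 0.05 (standard error 0.18). *Fap*, the fibroblast gene closest to *Dpp4*, was at -0.24 (standard error 0.25), and *Dpp8* and *Dpp9* at -0.11 and -0.08 (standard error 0.13 each). *Nnmt*, related to *Inmt*, was at -0.43 (standard error 0.24), with OR mouse 1 at 2.29 FPKM and the other 5 mice between 0.60 and 1.09 FPKM.

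Genes that act with the 10 were a list of 36, of which 26 were tested. The median log2 difference was -0.41, with 21 lower (70.1% of all genes were) and 5 higher. *Ccl11*, which encodes eotaxin, a chemokine that Dpp4 can trim, was the gene called, with an adjusted p of 0.198 by limma-trend, close to the threshold. It had 2.19, 2.46 and 3.11 FPKM in the OP mice and 10.9, 12.9 and 16.6 FPKM in the OR mice, and its log2 difference was -1.998 (standard error 0.21). The call was lost, for example, when the samples were scaled by median of ratios, at a pseudocount of 0.1, with the replicate number as a block and with each mouse left out in turn.

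Ferritin, the cargo of *Scara5*, is encoded by abundant genes, in which the groups overlapped. *Fth1* ran from 1264 to 3921 FPKM in OP mice and from 1860 to 2642 FPKM in OR mice, and *Ftl1* from 927 to 1458 and from 1146 to 1336 FPKM. The procollagen proteinase *Bmp1*, with which *Pcolce2* acts, was at -0.14 (standard error 0.29), and the groups overlapped. Of the elastic fibre genes, *Fbln2* was at -1.19 (standard error 0.21) and *Fbln5* at -0.92 (standard error 0.30), both without overlap, while *Fbn1* (-0.76, standard error 0.32) and *Eln* (-0.48, standard error 0.32) overlapped. The study reported *Fbln2*, *Fbn1* and *Mfap2* among its key driver genes, as significantly higher in OR mice and also by real-time PCR. The actins cut by gelsolin, *Actb* and *Actg1*, were at 0.01 and -0.07 (standard error 0.24 each).

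Markers of other cell types were set beside these values. Of 10 macrophage genes, 9 were lower (70.1% of all genes), with a median log2 difference of -0.91, and 8 did not overlap (6.81%). The median of 8 adipocyte genes was -0.83, but the groups overlapped in all 8, and the summed level was 26.0 to 154 FPKM in OP mice and 85.2 to 385 FPKM in OR mice. Mesothelium, the outer lining of the gut wall, had a summed level ruled by *Krt19*, which epithelium also makes. Its defining genes *Msln* and *Upk3b* were at 0.58 to 2.87 and 0.18 to 2.60 FPKM in OP mice and at 0.93 to 1.27 and 1.22 to 3.28 FPKM in OR mice, so they overlapped.

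The medians of smooth muscle (-0.32), lymphocytes (-0.34), enteric neurons and glia (0.08) and epithelium (0.17) lay nearer to that of all genes. Limma-trend called 0 genes in each of these lists, and 0 in the endothelial, macrophage, adipocyte and mesothelial lists. At an unadjusted p below 0.05 (3.53% of all genes were lower), limma-trend gave 9 of 12 endothelial and 9 of 10 macrophage genes as lower. It gave 1 each of the adipocyte, mesothelial and lymphocyte genes, and 0 of the others. Averaged over its genes, the deviation of the macrophage list was -0.40, -0.82 and 0.09 in OP mice 1, 2 and 3, against 0.21, 0.56 and 0.36 in OR mice 1, 2 and 3. OP mouse 3 thus lay close to the OR mice in this list. For the 10 genes, each OP mouse was at -0.44 or below and each OR mouse at 0.49 or above. The part of macrophages, endothelium and fat in the values of the 10 genes was not tested.

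**Figure D4:**
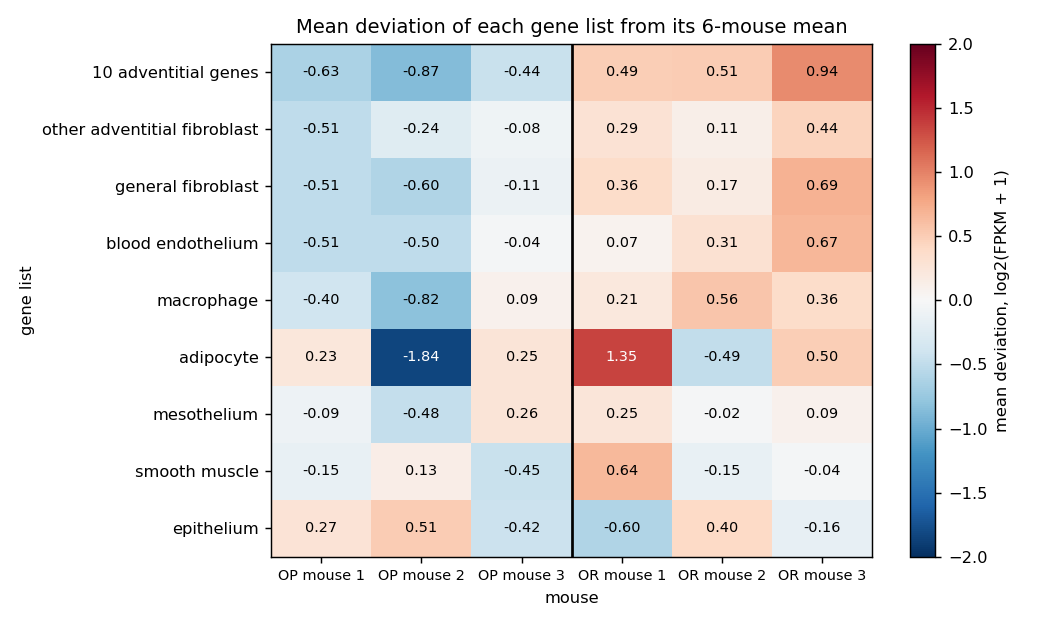
Values of 9 gene lists, each the average log2(FPKM + 1) of its genes after the mean of each gene was set to 0, by row and mouse by column, with the value in each cell and red for higher. The 10 adventitial genes run from -0.87 to -0.44 in OP mice and from 0.49 to 0.94 in OR mice, while the adipocyte list spans -1.84 to 1.35 across both groups.

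Finally, the genes with the most similar profile over the 6 mice were sought among all genes tested. Likeness was the root mean square difference of log2(FPKM + 1) after centring each gene, and it contains the contrast on which the 10 genes were chosen. The mean profile of the 10 genes was nearest to *Folr2*, a folate receptor of resident macrophages, at 0.09, then *Fbln2* at 0.11, *Gfpt2*, an enzyme of hexosamine synthesis, at 0.13, *F13a1*, a coagulation factor subunit also made by macrophages, at 0.15, and *Rgs2*, a regulator of G protein signalling, at 0.15. *Folr2* was at 0.44, 0.08 and 0.73 FPKM in the OP mice and at 1.95, 2.09 and 3.56 FPKM in the OR mice. The profile nearest to *Scara5* was that of *F13a1*, at 0.20, and that nearest to *Clec3b* was that of *Dcn*, at 0.21.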

How the data were processed

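Colon RNA of 3 OP and 3 OR mice was sequenced by the authors from strand-specific, mRNA-enriched libraries on the DNBSEQ platform. SOAPnuke was used for read filtering, Bowtie2 for alignment to a gene set and RSEM for quantification. The methods and the labels describe the gene set differently, and the submitters' processing notes also list HISAT2 2.0.4 and GRCm39. The deposited values are FPKM per gene and mouse, rounded to 2 decimals. Replicates were not pooled, and all value columns were used.

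From these values, genes with at least 0.5 FPKM in at least 3 mice entered the fit (13520 genes). The difference OP minus OR of log2(FPKM + 1) came from limma-trend (R 4.3.3, limma 3.58.1), with the group as its single term. A call needed a Benjamini-Hochberg adjusted p below 0.2 and an OP to OR fold of 1.2 and higher, or of 0.83 and lower. DESeq2, used by the authors, needs counts and was not run. On simulated data with 200 changed genes among 13520, 60.5% were recovered at a log2 change of 1 and 95% at 2. Of the calls, 20.9% and 21.8% were unchanged genes. The noise was drawn independently for each gene, so shifts shared by many genes of a mouse were not simulated. These rates may therefore not hold for the deposited data.

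Depth was estimated from 885 genes with 1 annotated transcript of 600 to 4000 bases and values below 1 FPKM. After 250 bases were taken off each length, a number set after the values were seen, 77.0% to 81.0% of the low values lay within 0.25 of a whole number of fragments, against 50% for an even spread. The step of a single fragment was fitted to these same values in each mouse. The fit by itself raises the share, so 50% is too low a baseline. Fragment numbers use the longest coding transcript of GENCODE M21 and are approximate. They cover counting error only.

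The 10 genes and all lists were chosen with earlier results of these data known. Named genes were the 10 genes, up to 3 genes at each end of a list, called genes, relatives and partners, and the 5 nearest profiles; *Ly6a*, *Wnt2b*, *Grem1*, *Gli1*, *Aqp8*, *Muc2*, *Krt8* and *Epcam* were also named after their values were seen where they fall outside this rule. Alternatives were limma without trend, median-of-ratios and TPM scaling, a pseudocount of 0.1, other filters, each mouse left out and the replicate number as a block. Tables were made with pandas 2.3.3.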

Additional observations from a re-analysis of the deposited data

How the results depend on the processing

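The median log2 difference of the 10 genes was -1.273. It was -1.533 after TPM scaling and -1.993 with a pseudocount of 0.1, both of which weigh low genes more by construction, and -1.384 to -1.085 with each mouse left out. With at least 1 FPKM in all 6 mice, 5 of the 10 genes remained and 4 of them did not overlap. The difference of the 10 genes from the general fibroblast genes, -0.4806, was -0.6036 after TPM scaling and -0.8917 with a pseudocount of 0.1. *Dpp4* turned from -0.4213 to 0.02889 without OP replicate 1, within a range of -0.7771 to 0.02889 with each mouse left out. Of the 125 values of single genes among the 10 under the alternatives, 116 stayed within the spread between mice, 8 moved further and 1 turned. Limma without trend, the replicate block and the other filters cannot change the difference of a gene. The values from these settings are among the 116 by construction, so that count does not measure stability.

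Over all genes, 3 were called as lower and 0 as higher in OP mice, and *Ccl11* was the 1 call among the 180 other listed genes tested. With median-of-ratios scaling, TPM scaling, a pseudocount of 0.1, all genes above 0 in any mouse, and at least 1 FPKM in all 6 mice, the calls were 0 over all genes and 0 in the lists; the cause was not tested. With each mouse left out they were 0 to 1 over all genes and 0 in the lists. With the replicate block they were 0 and 0. The numbers belong to different mice, and the deviations of same-numbered mice correlated by -0.14, -0.16 and 0.07. Deviations within groups of 3 mice cannot tell whether same-numbered mice share more than a number. Median-of-ratios scaling moved the median of all genes from -0.1032 to 0.01206 and genes at an unadjusted p below 0.05 from 477 lower and 68 higher to 423 and 153; the median of the 10 genes was then -1.173. Differences closer to 0 than this shift can change sign with the scaling. Leaving out 1 mouse gave 231 to 1104 lower and 24 to 181 higher. At the estimated depth, *Pi16*, *Mfap5*, *Inmt*, *Pcolce2* and *Scara5* rest on under 40 fragments in each OP mouse.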

Other observations

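The promoter window of *Inmt* held a stretch of 46 bases (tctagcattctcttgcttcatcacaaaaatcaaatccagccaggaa) in 2 adjacent copies that begin at positions -235 and -189 from the RefSeq start. Of all 32851 windows, 82 (0.25%) held 2 copies of a stretch that long, and in the other windows of the 10 genes the longest repeated stretch was 7 to 9 bases.

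The profiles nearest to *Inmt* over the 6 mice were *Pf4*, a platelet chemokine, at a root mean square log2 difference of 0.34, *Retnla*, a secreted protein of alternatively activated macrophages and adipose tissue, at 0.39, *Ccl11* at 0.43, *Trf*, which encodes transferrin, at 0.43, and *Cd36*, a fatty acid carrier, at 0.45. *Trf* was at 5.47, 2.18 and 9.62 FPKM in the OP mice and at 25.4, 11.3 and 15.3 FPKM in the OR mice. *Scara5* was near *Retnla* (0.21), *Col14a1* (0.21) and *Postn* (0.21), and *Clec3b* was near *Pf4* (0.28), *Igfbp3* (0.29), *Ccl11* (0.30) and *Lyve1* (0.33). When each gene was centred within its group, which takes the contrast out, the genes nearest to the mean of the 10 were *Mettl22*, *Arid3a*, *Cpm*, *Ednra* and *Itga11*, at 0.05 each, and in all 5 the OP and OR mice overlapped.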
